A study of Mus musculus with 16 samples.

Results

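The regions described here are the places on the mouse genome where an RNA was found on a chromosome other than the one it was transcribed from. They are 25-kb DNA bins, chosen as every bin that held at least 1 significant RNA–DNA pair whose RNA tag and DNA tag lay on different chromosomes (trans), and there were 408 such bins in Input and 400 in H3K27me3-RADIP, or 768 in either table, out of 42257, 43827 and 49063 bins with any listed pair. Bins, RNAs and pair numbers all come from the tables that chose the members, so they are given as a description and were not tested.

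RADIP joins RNA to the DNA beside it with a bridge adapter inside fixed nuclei and then pulls down chromatin that carries histone H3 trimethylated at lysine 27 (H3K27me3), a repressive mark laid down by Polycomb group enzymes. All libraries came from mouse embryonic stem cells of the line PGK12.1, grown with fetal bovine serum and leukemia inhibitory factor, fixed with 1% formaldehyde and cut with DNase I. The H3K27me3-RADIP group was precipitated with an anti-H3K27me3 antibody, and the Input group was the part of the same kind of chimeric material that was kept back and never met the antibody. Each group had 8 libraries by the labels, which do not say which of them are separate biological replicates (the study describes fewer replicates than libraries), and the authors merged them into 1 table per group, so there is 1 value per group, the spread between replicates cannot be given, and the intervals below are 95% Wilson intervals that cover counting error only. In bulk libraries, contacts in fewer cells and fewer contacts per cell cannot be told apart.

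The Input table held 1305107 pairs, and 1415135 pairs were listed for H3K27me3-RADIP, grouped by the authors into 64104 and 73554 combinations of 1 RNA with 1 bin. The 4505 trans pairs of Input were 0.345% of its pairs (0.335 to 0.355), and the 5313 of H3K27me3-RADIP were 0.375% (0.365 to 0.386). Of 13 embryonic stem cell marker genes, 9 in Input and 10 in H3K27me3-RADIP were listed as RNAs, with 11383 and 12542 pairs in all, among them Jarid2, Esrrb and Tet1, while Pou5f1, Nanog and Tdgf1 were not listed in either table. Of 11 markers of differentiated cells, 3 and 5 were listed, with 49 and 96 pairs.

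Nascent RNA is attached to its gene through the polymerase, while stable nuclear RNAs leave the place where they were made. Among the latter are small nuclear RNAs of the spliceosome, which meet pre-mRNA at transcribed genes; Malat1, a long non-coding RNA of nuclear speckles; and RNAs of the nucleolus such as the box C/D small nucleolar RNA Snord118 (U8) and Rmrp, the RNA of RNase MRP, both of which take part in the processing of ribosomal RNA precursors. The tables listed trans bins for 12 RNAs in Input and 40 in H3K27me3-RADIP, and 4 of them, Gm22973, Malat1, Snord118 and Rmrp, held most of the bins.

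The genes of the short RNAs are given here to show where along each molecule the RNA tags of trans pairs lay. Sequences were read from the GRCm38.p6 (mm10) assembly of RefSeq on the strand of the gene, 5′ to 3′, and capitals mark the bases covered by at least 50% of the peak number of trans RNA tags. Gm22973 is an annotated small nuclear RNA gene, of the U2 kind by its sequence, at chr12:59040335-59040525 (plus strand), Snord118 lies at chr11:69073427-69073561 (plus strand), and Rmrp at chr4:43492788-43493058 (minus strand).
Gm22973: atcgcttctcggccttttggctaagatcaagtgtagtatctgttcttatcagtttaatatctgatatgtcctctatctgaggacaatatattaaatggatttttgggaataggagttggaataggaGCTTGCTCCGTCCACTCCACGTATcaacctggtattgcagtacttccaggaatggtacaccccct
Snord118: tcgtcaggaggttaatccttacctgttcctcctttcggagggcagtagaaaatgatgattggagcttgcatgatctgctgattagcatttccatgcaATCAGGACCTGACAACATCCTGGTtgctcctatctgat
Rmrp: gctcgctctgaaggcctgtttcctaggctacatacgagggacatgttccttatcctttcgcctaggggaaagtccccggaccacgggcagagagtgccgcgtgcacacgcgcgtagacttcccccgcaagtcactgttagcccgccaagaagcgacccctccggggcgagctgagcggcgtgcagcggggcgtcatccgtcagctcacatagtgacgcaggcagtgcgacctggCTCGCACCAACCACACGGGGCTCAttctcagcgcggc

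In Gm22973, 99.8% of the trans RNA tags of both tables lay in the last part of the gene when it was cut into 3 equal parts. In Snord118, 97.0% did so in Input and 98.1% in H3K27me3-RADIP. The listed cis tags of these RNAs lay there too, with 100% for Gm22973 in both tables and 96.1% and 97.4% for Snord118. The tags of Rmrp were spread more widely, with 54.6% and 59.7% in the last part. Malat1, whose gene covers chr19:5795690-5802672 (minus strand), had tags along its whole length, with 41.5%, 35.3% and 23.2% of them in its first, middle and last part in Input and 41.6%, 32.4% and 25.9% in H3K27me3-RADIP. Gm22973 was identical to the U2 gene Rnu2-10 (chr11:101658238-101658428) at 182 of its 191 bases, so which U2 copy a tag came from rests on few bases. Of its trans RNA tags, 1.12% in Input and 1.19% in H3K27me3-RADIP occurred letter for letter at more than 1 place in the genome, which is below the 3.06% and 2.88% found for cis pairs.

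A second set of sequences shows some of the narrow landing sites. There, trans DNA tags of 1 or more RNAs piled up in less than 200 bases rather than spreading over the 25-kb bin. Capitals mark the bases covered by trans DNA tags and small letters the sequence between and beside them, all from the plus strand of the same assembly. The Rpp21 site, named here like the others for the nearest gene start, was the one reached by the most RNAs.
Rpp21 site, chr17:36231381-36231591: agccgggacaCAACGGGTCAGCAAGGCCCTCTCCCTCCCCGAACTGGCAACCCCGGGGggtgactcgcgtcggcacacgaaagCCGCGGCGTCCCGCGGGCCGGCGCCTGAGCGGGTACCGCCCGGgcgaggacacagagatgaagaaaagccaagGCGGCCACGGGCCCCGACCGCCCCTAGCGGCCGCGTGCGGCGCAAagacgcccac
Ifngr2 site, chr16:91534580-91534706: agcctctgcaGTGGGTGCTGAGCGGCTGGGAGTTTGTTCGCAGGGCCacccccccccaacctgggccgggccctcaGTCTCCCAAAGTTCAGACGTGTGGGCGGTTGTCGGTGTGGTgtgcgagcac
Il1rapl1 site, chrX:87238348-87238432: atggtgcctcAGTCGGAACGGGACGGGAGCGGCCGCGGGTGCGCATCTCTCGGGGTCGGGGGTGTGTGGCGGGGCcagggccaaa
Fbln1 site, chr15:85177739-85177797: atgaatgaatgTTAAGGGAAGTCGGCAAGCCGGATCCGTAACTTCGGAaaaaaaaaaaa
Mpnd site, chr17:56005857-56005916: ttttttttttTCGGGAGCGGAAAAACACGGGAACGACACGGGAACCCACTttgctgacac
Taco1 site, chr11:106066762-106066849: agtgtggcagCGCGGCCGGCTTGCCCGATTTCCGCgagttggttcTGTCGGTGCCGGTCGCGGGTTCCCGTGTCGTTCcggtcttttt
Cd209a site, chr8:3754430-3754495: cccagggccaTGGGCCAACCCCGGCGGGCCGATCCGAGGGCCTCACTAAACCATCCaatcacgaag
Zfp945 site, chr17:22876448-22876510: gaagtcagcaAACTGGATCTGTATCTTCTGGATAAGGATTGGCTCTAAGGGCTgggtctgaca
Chordc1 site, chr9:17987791-17987850: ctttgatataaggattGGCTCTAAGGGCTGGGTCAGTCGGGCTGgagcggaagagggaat

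The Zfp945 and Chordc1 sites, on different chromosomes, shared the 27 bases ataaggattggctctaagggctgggtc on the same strand, and the Mpnd and Taco1 sites shared the 18 bases gggttcccgtgtcgttcc on opposite strands. With 1 kb on either side included and interspersed repeats not masked, 12 of the 22 narrow sites matched another of them. Other stretches of the genome were not searched in this way, so no background share can be given. What the data show at these sites is taken up after the bins of the leading RNAs.

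Gm22973 reached the most bins in Input and Malat1 the most in H3K27me3-RADIP. Gm22973 was listed in 285 trans bins with 2940 pairs in Input and in 176 bins with 1765 pairs in H3K27me3-RADIP, and 97.8% and 96.9% of all its listed pairs were in trans. Malat1 was listed in 121 bins with 1199 pairs in Input and in 207 bins with 2130 pairs in H3K27me3-RADIP, with 80.3% of its pairs in trans in both tables. The order of the 2 RNAs by number of bins was thus opposite in the 2 tables.

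The nucleolar RNAs reached far fewer bins. Snord118 was listed in 15 bins with 169 pairs in Input and in 26 bins with 569 pairs in H3K27me3-RADIP, or 129 and 402 for every 1000000 listed pairs, a unit called scaled pairs from here on. Rmrp was listed in 9 bins with 108 pairs and in 18 bins with 293 pairs, or 82.8 and 207 scaled pairs. Both had more bins and more pairs in H3K27me3-RADIP. Rnu3a, the U3 small nucleolar RNA that takes part in early cleavage of the ribosomal RNA precursor, had 1 bin with 17 pairs and 5 bins with 55 pairs. Several small RNAs were listed in H3K27me3-RADIP alone, all of them with every listed pair in trans: Snord13 (U13) in 5 bins with 68 pairs, Snord14e (U14) in 2 with 20 pairs, Gm24134 in 2 with 19 pairs, and Gm26448, Snord17 and Mir3535 in 1 bin each with 13, 9 and 12 pairs. Rpph1, the RNA of RNase P, was in 1 bin in each table with 9 and 8 pairs.

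**Figure D1:**
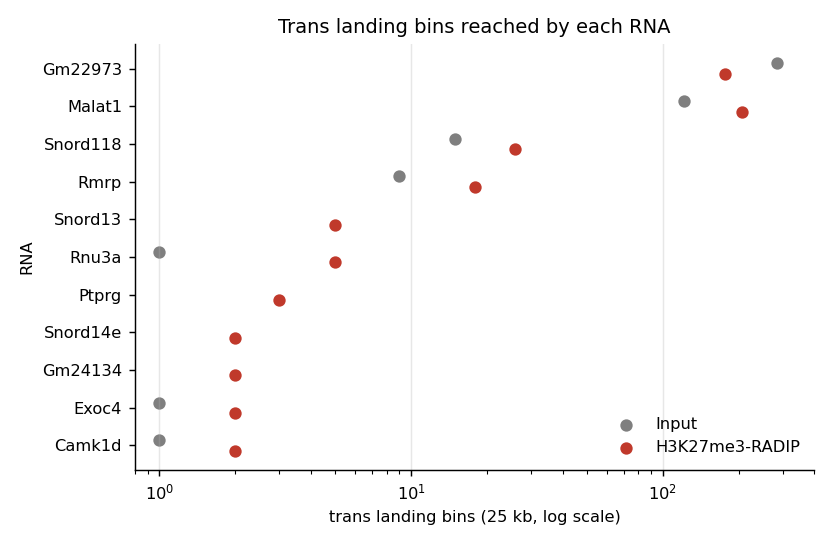
Trans bins of each RNA (horizontal axis, number of 25-kb bins) in Input and H3K27me3-RADIP. Gm22973 had 285 and 176 bins and Malat1 121 and 207, and no other RNA exceeded 26.

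By class, 71.0% of the trans combinations in Input came from short non-coding RNAs (ncRNA in the tables), 27.9% from long non-coding RNAs and 0.913% from protein-coding RNAs (pcRNAs). In H3K27me3-RADIP these shares were 49.9%, 43.6% and 6.50%. Their counting intervals ran, for ncRNA, from 66.6 to 75.1 and from 45.4 to 54.4, for long non-coding RNAs from 23.9 to 32.2 and from 39.2 to 48.1, and for pcRNAs from 0.356 to 2.32 and from 4.62 to 9.08. The pcRNA values rested on 1 locus: without the 3 bins of the Sfi1 gene described further on, an alternative chosen after seeing the data, the shares were 0% and 0.685%. Small nucleolar RNAs supplied 3.65% of the combinations in Input and 8.81% in H3K27me3-RADIP. Of the other RNAs looked for, Malat1 was the only one in trans of 12 nuclear long non-coding RNAs, although 10 of them were listed as RNAs in Input and 11 in H3K27me3-RADIP. Gm22973 was the only one listed of 14 spliceosomal RNAs, and Rmrp, Rpph1 and Snord118, joined in H3K27me3-RADIP by Snord13, were the only ones of 13 further small RNAs.

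Most bins were reached by a single RNA at a pair number close to the lowest the tables hold. Combinations in trans had between 8 and 44 pairs in Input and between 8 and 56 in H3K27me3-RADIP, with a median of 9 in both. Exactly 9 pairs were found in 237 combinations in Input (54.1%) and in 228 in H3K27me3-RADIP (47.8%), and 20 or more in 4 and 21. The authors kept combinations with a q-value of 0.1 or less, and the trans combinations closest to that limit were Dip2c at the Sfi1 gene in Input with 8 pairs (q = 0.0773) and, in H3K27me3-RADIP, Ptprg with 8 pairs at Sfi1 (q = 0.0982) and Macf1 with 8 pairs at the Rpp21 site (q = 0.0959). Values of combinations beyond the limit were not analysed here. A combination of Gm22973 with 9 pairs had a q-value of 0.0610 in Input and 0.0446 in H3K27me3-RADIP, and 235 trans combinations in Input but 11 in H3K27me3-RADIP had a q-value over 0.05.

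A trans bin listed in 1 table was seldom a trans bin in the other. Both tables held 40 of the bins, which is 9.80% of those in Input (7.28 to 13.1) and 40 of 400 of those in H3K27me3-RADIP (7.43 to 13.3%). The 408 trans bins of Input and 400 of H3K27me3-RADIP made 768 in either table. Listed bins of any kind overlapped far more, with 42257 in Input, 43827 in H3K27me3-RADIP and 49063 in either. Gm22973 returned in 23 of its bins, Malat1 in 5, Snord118 in 5 and Rmrp in 4. Of the trans combinations, 9.82% of those in Input and 9.01% of those in H3K27me3-RADIP were in both tables. Over all combinations, cis and trans, 48606 were in both, of 64104 in Input and 73554 in H3K27me3-RADIP. The share of trans combinations found again was higher for larger ones, and cis combinations of the same sizes were not compared. From Input, 5.02% of the combinations with 8 or 9 pairs, 13.8% of those with 10 to 19 and 4 of 4 with 20 or more were also in H3K27me3-RADIP, but 3 of these 4 lay in a single bin of the Sfi1 gene and the fourth at the Rpp21 site. From H3K27me3-RADIP, the shares found in Input were 3.77%, 10.6% and 52.4% (11 of 21).

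Bins with 2 or more RNAs numbered 20 in Input (4.90%, 3.20 to 7.45) and 24 in H3K27me3-RADIP (6.00%, 4.06 to 8.77). Without the narrow stacks described further on, an alternative chosen after seeing the data, the shares were 4.22% and 3.44%, and the order of the tables turned round. Gm22973 and Malat1 were the only RNAs in 12 of the 20 and in 9 of the 24. Among the remaining bins were the 3 bins of the Sfi1 gene on chromosome 11, the bins of narrow sites and the bin chr9:123925001-123950000 near Ccr1, which held 42 trans pairs in Input with 44 in H3K27me3-RADIP. The Ccr1 bin had no cis pair in either table. Gm22973 and Gm47283, a long non-coding RNA of the Y chromosome in the annotation used here, were found in it in both tables, joined by Snord118 in Input and by Malat1 and Rmrp in H3K27me3-RADIP. Gm47283 had all of its listed pairs there, 18 in Input and 11 in H3K27me3-RADIP.

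The bins of Gm22973 held more local RNA and more gene starts than listed bins in general. A local RNA tag is the RNA tag of a cis pair that lies in the bin itself, and the number of such tags was taken as a rough measure of transcription there. The median was 53 local RNA tags for the Gm22973 bins in Input and 27.5 in H3K27me3-RADIP, against 10 for all listed bins in both tables and 7 in both for bins that an RNA of the same chromosome reached from more than 5 Mb away. A protein-coding gene started in 62.1% of the Gm22973 bins in Input (56.3 to 67.5) and in 58.5% in H3K27me3-RADIP (51.1 to 65.5), while the figure for all listed bins was 23.9% and 24.2%. For the far cis bins it was 28.1% and 31.0%, so the difference was also there against contacts at long range on 1 chromosome. Of the 40 trans bins found in both tables, 30 had a gene start (59.8 to 85.8%), an interval that overlaps those of the Gm22973 bins. Their median was 55.5 local RNA tags in Input and 57.5 in H3K27me3-RADIP. Their mean was 80.6 in Input, below the 89.9 of the Gm22973 bins, and 92.0 in H3K27me3-RADIP, above the 54.8 of the Gm22973 bins.

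The Gm22973 bins with the most pairs outside Sfi1 in Input included that of Slc2a3, a glucose transporter gene, with 18 pairs. Next came Dhx9 (an RNA helicase), Idh3b (a subunit of mitochondrial isocitrate dehydrogenase) and the bin beside Ftl1 (ferritin light chain) with 17 each. Npm1 (nucleophosmin) and the bin beside Tnpo2 (transportin) had 16, and the bin near Ncl (nucleolin) had 15. In H3K27me3-RADIP the leading bins outside Sfi1 were the one at Brd2, a bromodomain protein gene, with 21 pairs, the Ftl1 bin with 17, and Eef2 (elongation factor 2) and Idh3b with 14 each. The Idh3b, Ftl1, Brd2 and Eef2 bins were listed in both tables, the Slc2a3, Dhx9, Npm1 and Tnpo2 bins in Input alone.

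Malat1 bins had more local RNA than the genome at large in Input, and less so in H3K27me3-RADIP. The median was 45 local RNA tags in Input and 17 in H3K27me3-RADIP. A protein-coding gene started in 43.0% of its bins in Input (34.5 to 51.9) and in 50.7% in H3K27me3-RADIP (44.0 to 57.5). After Sfi1 with 34 pairs, its leading bins in Input were Rif1, a gene of replication timing control, with 16 pairs, Dhx9 with 14, and Nfix (a transcription factor) and Tenm3 with 13 each. In H3K27me3-RADIP, after 2 Sfi1 bins with 51 and 19 pairs, came Nxph4 (a neurexophilin) with 16, the bins near Chmp6 and Ccr1 with 15, 5 bins with 14 (the Eef2 bin, which also holds Dapk3, that of Fendrr beside Foxf1, near Tmem59l, at the Rpp21 site and in Sfi1) and 7 with 13, among them the bin of Mcm4, a replication helicase gene, and the bin near Neurod2. Fendrr is a long non-coding RNA gene next to the developmental transcription factor gene Foxf1, and Neurod2 is a neuronal transcription factor gene. The Fendrr and Neurod2 bins were listed as trans bins in H3K27me3-RADIP alone, and the Neurod2 bin had 0 listed local RNA tags. Gm22973 and Malat1 shared 15 bins within Input, which is 5.26% of the former's and 12.4% of the latter's, and 13 within H3K27me3-RADIP (7.39% and 6.28%).

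**Figure D2:**
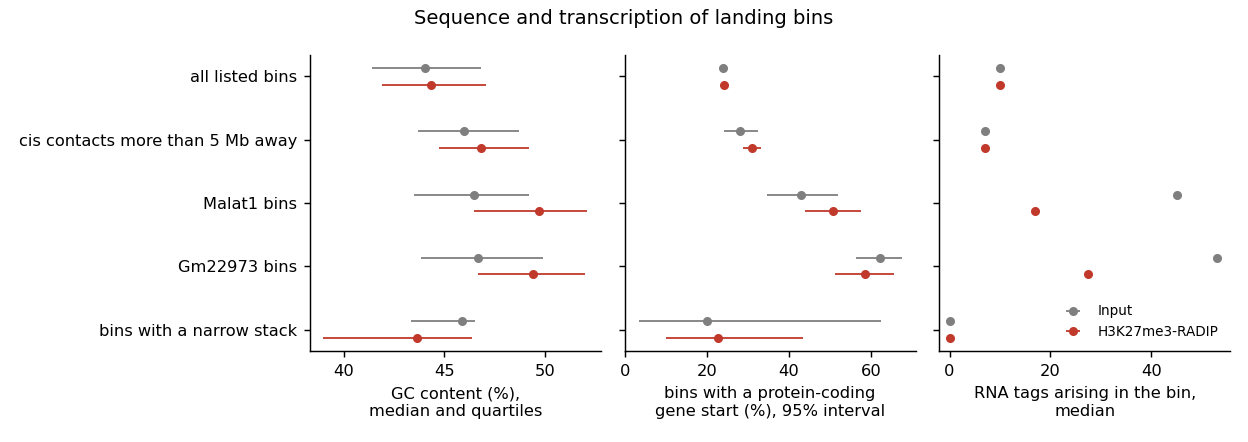
Median GC content with quartiles (left, percent), share of bins with a protein-coding gene start with its 95% interval (middle, percent) and median number of local RNA tags (right) for sets of bins in Input and H3K27me3-RADIP. Of the sets drawn, the Gm22973 bins lie furthest to the right in gene starts (62.1% and 58.5%) and in local RNA tags (53 and 27.5), and the bins with a narrow stack at 0 local RNA tags.

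The base composition of the bins differed between the tables. The median GC content of trans bins was 46.6% in Input and 49.1% in H3K27me3-RADIP, while that of all listed bins was 44.0% and 44.3%. Far cis bins lay between, at 46.0% in Input, close to the trans bins, and 46.8% in H3K27me3-RADIP. Both leading RNAs had the higher value in H3K27me3-RADIP, with 46.7% and 49.4% for Gm22973 and 46.5% and 49.7% for Malat1. Local RNA was lower in H3K27me3-RADIP. For all trans bins the median was 45 local RNA tags in Input and 17 in H3K27me3-RADIP, and 32.6% and 17.3% of them belonged to the top 10% of listed bins by local RNA. GC content and local transcription were not separated from each other or from the antibody step, and their part in the choice of bins was not tested.

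Among gene groups looked for in the bins, small nucleolar RNA genes lay in 32 trans bins in Input (7.84%, 5.61 to 10.9) and in 11 in H3K27me3-RADIP (2.75%, 1.54 to 4.86), against 1.30% of all listed bins in both. Ribosomal protein genes lay in 9 bins in Input (2.21%, 1.16 to 4.14) and in 2 in H3K27me3-RADIP (0.500%, 0.137 to 1.80), with 0.201% and 0.187% of all listed bins. Those in Input included the bins of Rpl3, Rpl32, Rplp1, Rps10 and Rps28, reached by Gm22973, and of Rpl4, Rpl10 and Rpl35, reached by Malat1. Gm22973 also reached the Rpl3 bin in H3K27me3-RADIP, and this bin held 14 pairs in Input and 9 in H3K27me3-RADIP. Snhg1, a host gene of small nucleolar RNAs, lay in a Gm22973 bin with 10 pairs in both tables.

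Histone genes lay in 1 trans bin in Input and in 2 in H3K27me3-RADIP (0.245% and 0.500%), against 0.0308% and 0.0251% of all listed bins. The histone cluster bin at chr13:23550001-23575000, which holds Hist1h1d, Hist1h3e, Hist1h4f and others, had 10 Gm22973 pairs in Input and 9 Malat1 pairs in H3K27me3-RADIP, and the bin of Hist4h4 (chr6:136800001-136825000) had 9 Gm22973 pairs in H3K27me3-RADIP. Hox genes, developmental regulators and textbook targets of H3K27me3, lay in none of the 408 trans bins in Input (upper bound 0.933%) and in 3 of 400 in H3K27me3-RADIP (0.750%, 0.255 to 2.18), against 0.0213% and 0.0411% of all listed bins. These were the bins of Hoxb13, of Hoxc5, Hoxc6, Hoxc8 and Hoxc9, and of Hoxd1, each with 9 Gm22973 pairs (q = 0.0446). Of the far cis bins in H3K27me3-RADIP, 0.643% (0.359 to 1.15) held a Hox gene.

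Landing bins were unevenly spread over the chromosomes, and chromosome 8 held the most in both tables. It had 73 trans bins in Input and 89 in H3K27me3-RADIP, or 25.7 (20.5 to 32.1) and 29.96 (24.4 to 36.7) for every 1000 listed bins of that chromosome. Chromosome 11 followed in H3K27me3-RADIP with 49 bins (16.5 per 1000) and had 40 in Input (14.3). Both leading RNAs were frequent on chromosome 8, with 45 and 40 bins of Gm22973 and 27 and 48 of Malat1. The X chromosome had 23 bins in Input (18.2, 12.1 to 27.1) and 8 in H3K27me3-RADIP (7.05, 3.58 to 13.8). Chromosome 12, which holds the Gm22973 gene and so can have no trans bin of that RNA, had 0 in Input and 10 in H3K27me3-RADIP, 9 of them of Malat1. Chromosome 3 had 10 in Input and 1 in H3K27me3-RADIP.

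**Figure D3:**
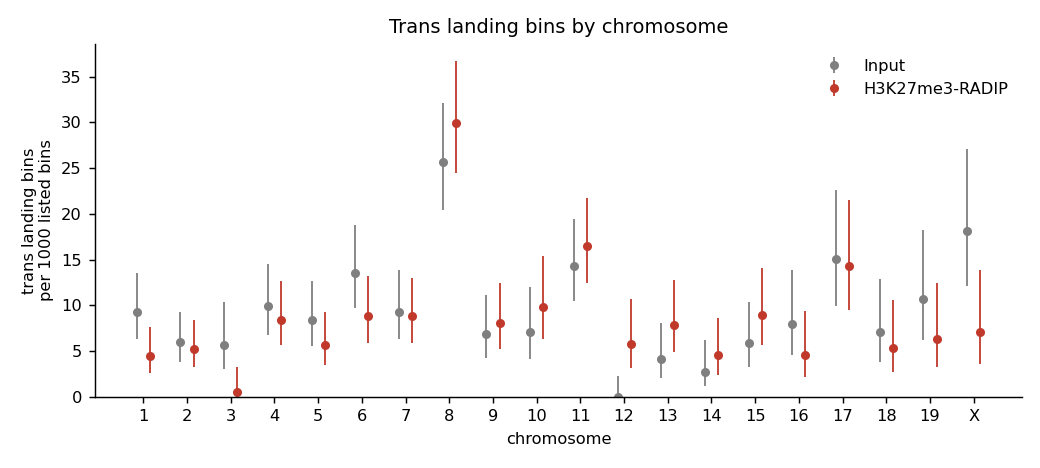
Trans bins per 1000 listed bins of each chromosome, with 95% Wilson intervals, in Input and H3K27me3-RADIP. Chromosome 8 is highest in both at 25.7 and 29.96, and chromosome 12 is at 0 in Input.

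Bins also came in runs. When bins no more than 500 kb apart were joined, 30 runs of 3 or more bins held 127 of the bins in Input, and 26 runs held 124 in H3K27me3-RADIP. The run with the most bins, in H3K27me3-RADIP, had 15 bins with 169 pairs at chr8:119725001-121900000 and takes in the Fendrr and Foxf1 bin. In Input the run with the most bins had 12 with 148 pairs at chr8:84675001-85550000, where Nfix and Tnpo2 lie. The corresponding run in H3K27me3-RADIP, chr8:84700001-85125000, had 8 bins with 107 pairs. The region chr8:69800001-70900000 had 11 bins with 115 pairs in H3K27me3-RADIP, and the run that began at the same base in Input had 5 bins with 50 pairs.

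One gene drew more RNAs than any other. The bin chr11:3150001-3175000, which lies inside the gene Sfi1 (a centrosomal protein, minus strand), had 9 RNAs and 171 trans pairs in Input and 28 RNAs and 396 trans pairs in H3K27me3-RADIP, or 131 and 280 scaled pairs. With its neighbours on both sides, the 3 Sfi1 bins held 172 and 382 scaled pairs. The RNAs of the central bin came from 9 chromosomes in Input and from 15 in H3K27me3-RADIP.

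For the non-coding RNAs of the central Sfi1 bin, the pairs of each RNA differed by less than 2-fold between the tables. In Input, Malat1 had 34, Gm22973 44 and Rmrp 30 pairs. In H3K27me3-RADIP they had 51, 35 and 31. Rnu3a had 17 and 10 pairs and Rpph1 9 and 8.

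The pcRNAs of this bin were 4 in Input and 23 in H3K27me3-RADIP. In Input the trans pcRNAs were 4 of 9288 listed pcRNAs, namely Camk1d (a calcium-dependent kinase) with 11 pairs, Enah (an actin regulator) with 9, Exoc4 (an exocyst subunit) with 9 and Dip2c with 8, and all 4 landed in this bin. In H3K27me3-RADIP there were 27 of 9606, with 341 pairs in 31 combinations and 6 bins, and 23 of the RNAs were in this bin. The leading ones were Ptprg (a receptor tyrosine phosphatase) with 26 pairs, Camk1d with 18, Fgfr2 (a fibroblast growth factor receptor) with 15, Kat6b (a histone acetyltransferase) and Etl4 with 13, Mcph1 (microcephalin) and Zfp704 with 12, and Mthfd1l (a mitochondrial folate enzyme) and Exoc4 with 11. Jarid2, a cofactor of the Polycomb enzyme that writes H3K27me3, was among those with 10 pairs. Of the 31 pcRNA combinations, 28 were in the 3 Sfi1 bins, where Ptprg had 48 pairs in all, Camk1d 33 and Exoc4 22.

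These pcRNAs came from long genes and had many pairs elsewhere. The 23 in the central bin of H3K27me3-RADIP had a median of 3659 listed pairs, of which the Sfi1 pairs were 0.0864% (Tenm4) to 1.59% (Tbl1xr1), while the median over all listed pcRNAs was 30 pairs. Above the 95th percentile of listed pcRNAs (558.5 pairs) were 22 of the 23. In Input the 4 had a median of 2962 pairs, and 4 of 4 were above the 95th percentile of 528. Their genes had a median length of 327 kb in H3K27me3-RADIP and 407 kb in Input, against 41.5 and 43.0 kb for all listed pcRNAs. The RNA tags of trans pcRNA pairs lay in introns in 86.5% of pairs in Input and in 91.2% in H3K27me3-RADIP.

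Within the Sfi1 bin the DNA tags did not pile up. They began at 162 different positions in Input and 345 in H3K27me3-RADIP, and the densest 200 bases held 5.26% and 3.79% of them. The bin was also a busy one in cis, with 231 cis pairs in Input (place 44 of 42226 bins) and 320 in H3K27me3-RADIP (place 9 of 43790), of which Sfi1 RNA itself gave 176 and 213. Of the trans DNA tags in the 3 bins, 0.444% in Input and 0.185% in H3K27me3-RADIP occurred at more than 1 place in the genome, against 0.0308% and 0.0851% of the tags of cis pairs, at counts of 1 tag in each trans set. A tag that occurs once in the reference can still come from copies that the reference lacks, and that was not tested.

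Outside Sfi1, 3 pcRNAs were in trans in H3K27me3-RADIP. Jade1 had 8 pairs in a bin of chromosome 17 (chr17:26875001-26900000) and Rif1 8 pairs in a bin of chromosome 6 (chr6:48600001-48625000), and Macf1, a large cytoskeletal linker gene, had 8 pairs in the Rpp21 bin of chromosome 17. No pcRNA was in trans outside Sfi1 in Input.

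The spread of DNA tags inside a bin separated the narrow sites from the rest. Spread is the distance between the outermost tag centres of a combination, and its median over all trans combinations was 19.5 kb for Input but 18.9 kb for H3K27me3-RADIP, against 21.7 and 21.5 kb in cis. Gm22973 (19.5 and 19.1 kb) and Malat1 (19.8 and 19.9 kb) were close to that. For Snord118 the median was 18.1 kb in Input but 9.23 kb in H3K27me3-RADIP, and for Rmrp it was 13.2 and 11.9 kb. The 19 combinations of the remaining RNAs that are not protein-coding had a median of 0.158 kb in H3K27me3-RADIP.

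A combination was called narrow where at least 50% of its tag centres lay within 200 bases, a definition made after the spreads had been seen. A narrow combination could still have a wide spread through outlying tags. Snord118 at chr18:41125001-41150000 in H3K27me3-RADIP had 60% of its tags in the densest 200 bases but a spread of 23649 bases. Narrow combinations were 8 of 438 in Input (1.83%, 0.928 to 3.56) and 51 of 477 in H3K27me3-RADIP (10.7%, 8.23 to 13.8). In cis they were 0.188% and 0.326% of all combinations, and 0.883% and 1.47% of those more than 5 Mb away. Snord118 had 5 of its 15 combinations narrow in Input and 18 of 26 in H3K27me3-RADIP, and Rmrp 3 of 9 and 12 of 18. Gm22973 had none in either table, and Malat1 had 0 of 121 and 4 of 207.

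**Figure D4:**
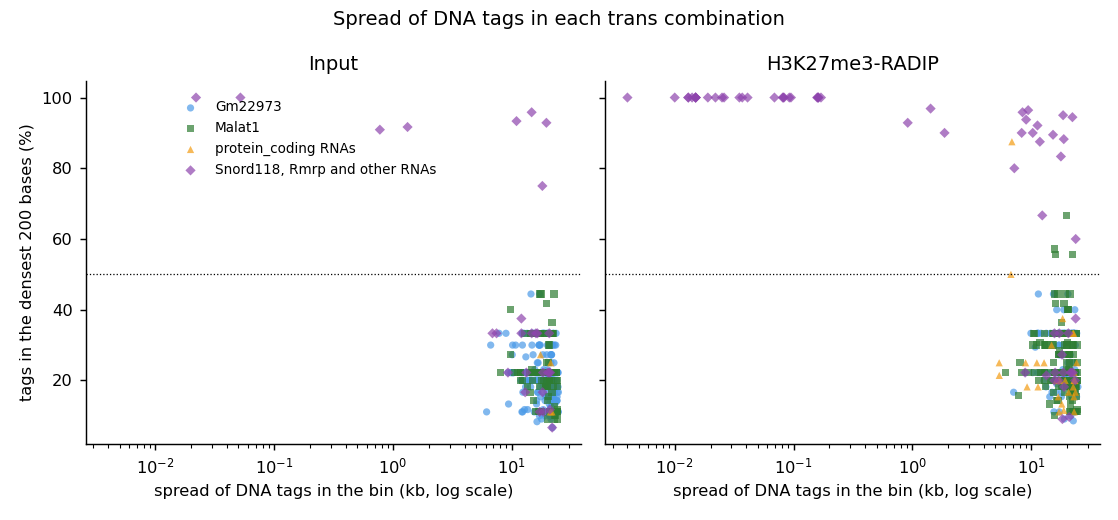
Spread of DNA tags within a bin (horizontal axis) against the percentage of tags in the densest 200 bases (vertical axis), 1 point per trans combination, for Input and H3K27me3-RADIP. Points of Gm22973 stay at or under 44.4% in the densest 200 bases, while points of Snord118, Rmrp and other small RNAs reach 100%.

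The narrow combinations fell on 22 sites of 15 chromosomes, between 24 and 194 bases long with a median of 44.5. Together they held 101 trans pairs in Input (2.24% of trans pairs) and 883 in H3K27me3-RADIP (16.6%), of which 720 were distinct in both tag positions. All 22 sites were found through H3K27me3-RADIP and 5 of them through Input as well, so the choice of sites fixes the direction of this difference. Tags came from both strands, with 48.6% on the plus strand in H3K27me3-RADIP. Snord118 was found at 18 of the sites and Rmrp at 12, and 11 sites had 2 or more RNAs. The 5 sites listed in both tables were those near Rpp21, Ifngr2, Il1rapl1, Fbln1 and Mex3c.

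The Rpp21 site (chr17:36231391-36231581) had 32 pairs and 2 RNAs in Input and 172 pairs and 9 RNAs in H3K27me3-RADIP, or 24.5 and 122 scaled pairs. Its RNAs were Snord118, Rmrp, Rnu3a, Snord13, Snord14e, Gm24134, Mir3535, Malat1 and Macf1, and its tags began at 49 different positions in H3K27me3-RADIP. At the Ifngr2 site there were 24 pairs from 2 RNAs in Input, and 116 from 6 RNAs in H3K27me3-RADIP. The site within the gene Il1rapl1 on the X chromosome had 11 and 88 pairs, from 1 and 5 RNAs, and the Fbln1 site 13 and 65, from 1 and 3. These sites had more pairs in H3K27me3-RADIP in every case.

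Other sites were listed in H3K27me3-RADIP alone. The site near Gtpbp4 (chr13:9011698-9011852) had 64 pairs from Gm24134, Rmrp and Snord118. The Mpnd site, 0.175 kb from the start of that gene, had 60 pairs from Rmrp, Snord118 and Snord13, and the Cd209a site had 48 from Rmrp, Rnu3a and Snord118. Input listed no pair at any of these sites, and since no trans combination with fewer than 8 pairs was listed, smaller numbers of pairs there cannot be read from its table.

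Few other contacts were listed at the narrow sites. In 15 of the 22 bins there was no cis pair in Input and in 14 none in H3K27me3-RADIP, and the Taco1 site was the only one with cis pairs inside the site itself, 23 of them in H3K27me3-RADIP. Over the 5 bins with a narrow combination in Input and the 22 in H3K27me3-RADIP, the median of local RNA tags was 0. The GC content of these 5 and 22 whole bins had a median of 45.9% and 43.6%, and the 22 sites themselves had a median of 60.8%. At the Rpp21 site it was 73.8%.

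The Mex3c site lay in an annotated ribosomal RNA gene, and the Cd209a site matched a locus that holds such a gene. The Mex3c site on chromosome 18 (chr18:73533456-73533536) lies in the annotated 5.8S ribosomal RNA gene n-R5-8s1 and held, from Rmrp and Snord118 alone, 21 Input pairs and 39 H3K27me3-RADIP pairs. The Cd209a site matched the locus chr17:39843013-39848827 over 57 bases at 82.5% identity, and over 378 bases at 83.3% when the 2 kb around the site were searched. The annotated ribosomal RNA gene of this locus, CT010467.1, covers chr17:39846353-39848827, and long non-coding RNA genes lie beside it. Which part of the locus matched was not recorded. None of the other sites matched this locus. A full ribosomal DNA repeat was not used here, so a missing match does not show that a site lacks ribosomal sequence. A relation of these sites to ribosomal DNA was not tested.

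**Figure D5:**
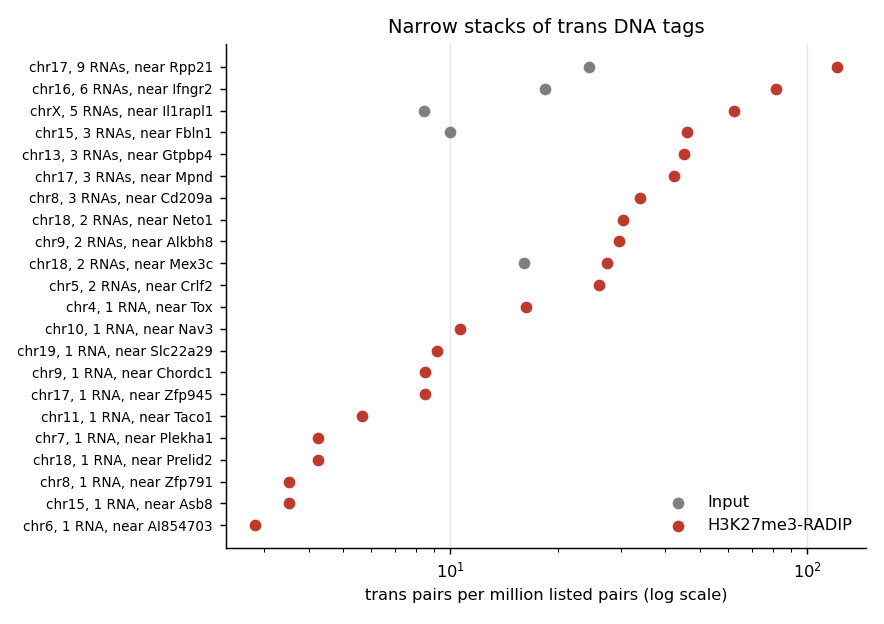
Trans pairs at each of the 22 narrow sites, scaled by the listed pairs of each table (horizontal log axis), in Input and H3K27me3-RADIP, with sites named by chromosome, number of RNAs and nearest gene start. Input is drawn at the 5 sites where it had listed pairs. The Rpp21 site is the highest in both, at 24.5 and 122 scaled pairs.

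Copies of the RNA genes themselves were searched for in the bins where they landed. None of the trans bins of Gm22973, Snord118, Rmrp, Rnu3a or the other small RNAs held a match to the gene of at least 50 bases and 80% identity. Such matches were rare in all listed bins on other chromosomes, so finding none says little. Gm22973 had the highest shares among these RNAs, 0.0517% in Input and 0.0499% in H3K27me3-RADIP, and Snord118 had 0%. Part of the Malat1 gene matched in 62.8% of its bins in Input and in 43.0% in H3K27me3-RADIP, while 39.3% and 38.5% of the listed bins on other chromosomes held such a match. None of the 4505 and 5313 trans RNA tags was found letter for letter in its own DNA bin.

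Combinations listed in both tables allow a direct comparison of pair numbers between H3K27me3-RADIP and Input. Of 43 trans combinations, 7 had at least 2-fold more scaled pairs in H3K27me3-RADIP (16.3%, 8.12 to 29.97) and 0 at least 2-fold fewer (up to 8.20%), beside 3.04% and 5.66% of all 48606 combinations listed in both. The median log2 ratio was -0.07 for the trans combinations and -0.12 over all. With no replicate values there is no test of a single ratio, and the choice of combinations listed in both tables leaves out those seen in 1 table only.

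Of the 7 combinations with higher numbers in H3K27me3-RADIP, 6 were at narrow sites. Snord118 had at least 2-fold more scaled pairs in 5 of its 5 shared bins, with 11 pairs in Input and 46 in H3K27me3-RADIP at Il1rapl1 (log2 ratio 1.95), 15 and 53 at Ifngr2 (1.70), 12 and 32 at Mex3c (1.30), 14 and 36 at Fbln1 (1.25) and 24 and 56 at Rpp21 (1.11). Rmrp had 12 and 40 pairs at Rpp21 (1.62) and 11 and 21 at Ifngr2 (0.82), but 30 and 31 pairs in the Sfi1 bin (-0.07) and 10 and 10 at Mex3c (-0.12). The only other combination past 2-fold was Gm22973 at Brd2, with 9 and 21 pairs (1.11). Scaled by trans pairs instead of all listed pairs, 5 of the 7 stayed past 2-fold, and Snord118 at Rpp21 and Gm22973 at Brd2 did not. The remaining 22 shared bins of Gm22973 and the 5 of Malat1 stayed within 2-fold. Library depth, pull-down yield and the H3K27me3 level of these bins could not be told apart in these tables, since the mark itself is not one of their columns.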

How the data were processed

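Per the study's methods and the submitters' processing notes, reads were base-called with CASAVA 1.8.2, split at the bridge adapter and aligned to mm10 with BWA 0.7.15-r1140 (the notes also name STAR 2.5.0a), ribosomal RNA reads and pairs in blacklisted DNA regions were removed, uniquely mapped pairs were annotated with GENCODE M25 and DNA tags were placed in 25-kb bins. The authors computed the deposited q-values for each combination of RNA and bin with a negative binomial model (a modified CHiCANE) and Benjamini-Hochberg adjustment. Each RNA's number of trans reads served as background, so that the pairs needed for a listing depend on the RNA. Combinations with a q-value of 0.1 or less were kept. The 8 libraries of a group were merged by the authors.

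Rows with RNA and DNA on different chromosomes were grouped by bin with Python 3.11.15 and pandas 2.3.3, numpy 2.4.6 and scipy 1.17.1, and matplotlib 3.10.9 drew the figures. Tag coordinates were read as 0-based starts of 24 bases. Genes in the bins came from GENCODE M21, and sequences from GRCm38.p6 through pysam 0.24.0. Matches to the genome were searched with blastn 2.17.0 (at least 50 bases and 80% identity for RNA genes of other than protein-coding type). For cis pairs, tag copies were counted in every 200th pair. Counting was tested on simulated data. Depth was 1305107 and 1415135 listed pairs, and pairs are PCR products without molecular identifiers, so intervals cover counting error only; of the Input trans pairs, 9.50% repeated both tag positions of another pair, as did 16.0% of those of H3K27me3-RADIP.

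RNAs named are the 6 with the most trans bins in each table, those of fixed lists (nuclear long non-coding, spliceosomal and other small RNAs), the 10 pcRNAs with the most trans pairs and RNAs in trans in both tables; bins named are the 10 with the most pairs, the 5 with the most RNAs and the 5 largest found in 1 table. Other bins and genes, the narrow sites and their definition, and the grouping of the 3 Sfi1 bins were picked once their values were known. The bins, lists and comparisons were chosen with earlier results of these data known. Alternatives were a q-value of 0.01 or less, at least 10 pairs, 100-kb bins, repeated pairs counted once (at least 7 distinct), no RNA tag with several places in the genome, leaving out Malat1 or Gm22973, and scaling by trans pairs. A few bins that the rule would name are not reported here.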

Additional observations from a re-analysis of the deposited data

How the results depend on the processing

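No paired analysis was possible because the authors merged the replicates into 1 table per group, and for the same reason no replicate could be left out. Of 108 values under alternatives, 77 stayed within the interval of the main value or, for numbers of bins and combinations, within 1.5 times it, and 31 did not. With a q-value of 0.01 or less there were 99 trans bins in Input and 108 in H3K27me3-RADIP, bins with 2 or more RNAs were 8.08% and 12.96%, bins in both tables were 13.1% (Input), pcRNA combinations 12.3% (H3K27me3-RADIP), the median spread 19.9 kb (Input) and the bins of the leading RNA 74.7% (Input). With at least 10 pairs there were 184 and 186 bins, 9.68% with 2 or more RNAs (H3K27me3-RADIP), a spread of 19.8 kb and a leading RNA in 77.7% (both Input). In 100-kb bins, 14.2% and 14.4% were in both tables. Without Malat1, 2.65% of bins had 2 or more RNAs and the leading RNA reached 94.4% in Input, and H3K27me3-RADIP had 208 bins, 13.9% in both tables, 11.5% pcRNA combinations and a spread of 18.4 kb. Without Gm22973 there were 140 and 237 bins, pcRNA combinations were 2.61% and 10.3%, and in H3K27me3-RADIP 5.06% of bins were in both tables and the leading RNA reached 87.3%. Scaled by trans pairs, 1 shared combination (Rnu3a at Sfi1) was at least 2-fold lower and 5 at least 2-fold higher in H3K27me3-RADIP. Among alternatives chosen after seeing the data, pcRNA combinations were 0% and 0.685% without the 3 Sfi1 bins, and 4.22% (Input) and 3.44% (H3K27me3-RADIP) of bins had 2 or more RNAs without narrow stacks. The causes were not tested beyond what each alternative leaves out. Depth limits what single bins show: a trans combination was listed from 8 pairs upward, and the median had 9.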
